A study of Homo sapiens with 32 samples.

Results

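The transcripts of 10 genes of the mesenchymal state and of epithelial-mesenchymal transition (EMT) were followed through 32 RNA-seq libraries of human cancer cell lines. The genes are VIM, CDH2, FN1, COL6A1, CAV1 and MSN, which encode structural, adhesion and membrane proteins, and ZEB1, ZEB2, SNAI2 and TWIST1, which encode transcription factors. They were taken as a list of names, chosen with earlier results of these data known, as were the gene lists below. Their counts beside the share of all genes are thus descriptions and not independent support. In all, 24 transcripts of these 10 genes were summed per gene, of 18854 genes and 87398 transcript identifiers. All 10 passed the filter on low counts and are described below.

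The lines were A375 (melanoma), Cal51 and MDA-MB-231 (breast cancer) and DLD1 (colorectal cancer), each as cells labelled wild-type, which the design text calls sensitive to inhibition of CDK11, and as cells carrying a G579S mutation, which it calls resistant. A 6 h treatment was with OTS964 (100 nM), a small-molecule inhibitor of the cyclin-dependent kinase CDK11, or with its solvent DMSO alone. Each of the 16 groups had 2 libraries. All lines were grown in DMEM with serum. The labels do not state whether the G579S cells of a line are 1 clone, or whether replicate libraries are from separate cultures. The p-values thus reflect the spread of these libraries alone, and that spread may be technical.

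As background, EMT is the change in which epithelial cells lose E-cadherin junctions and take on a motile, fibroblast-like form. ZEB1, ZEB2, SNAI2 and TWIST1 repress epithelial genes, ZEB and SNAI proteins through E-box sequences such as CAGGTG, while the intermediate filament protein vimentin (VIM), N-cadherin (CDH2) and fibronectin (FN1) are the usual markers of the mesenchymal end. Many melanoma and triple-negative breast cancer lines are at that end in culture, and most colorectal lines are not.

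A library held 16091376 to 29742687 estimated reads. CPM below are a gene's counts relative to all reads assigned to genes, scaled by TMM (trimmed mean of M-values) factors that set the bulk of genes level between libraries. These factors averaged 0.768 ± 0.0505 (SD, n = 8) in wild-type OTS964 libraries and 1.12 ± 0.0257 (SD, n = 8) in wild-type DMSO libraries. The choice of scaling therefore moves every wild-type response: against plain library totals the median log2 response of all genes was lower by 0.55. CDK11B averaged 638 ± 47.6 CPM (SD, n = 2) in MDA-MB-231 G579S under DMSO but 59.1 ± 3.88 CPM (SD, n = 2) in its wild-type counterpart. The other DMSO groups lay between 32.5 and 52.4 CPM, and the split from its near-identical copy CDK11A is uncertain. CDK11A itself had means of 33.1 CPM (wild-type) and 25.6 CPM (G579S) in that line under DMSO. Both lay within the range of the other DMSO groups, 14.4 to 39.8 CPM. The source of the CDK11B difference was not tested.

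The libraries labelled DLD1 wild-type went against their label. SOX10, a transcription factor of the melanocyte and neural crest lineage, averaged 716 CPM there under DMSO, 591 CPM in A375 wild-type and 1.29 CPM in DLD1 G579S. CDX2, a transcription factor of intestinal epithelium, averaged 3.25 CPM against 96.3 CPM in DLD1 G579S, E-cadherin (CDH1) 16.2 against 551 CPM, and the epithelial surface protein EPCAM 21.8 against 689 CPM. In A375 wild-type under DMSO CDX2 and CDH1 were at 0 CPM and EPCAM at 0.159 CPM, so the libraries labelled DLD1 wild-type also stood above A375 in these 3 genes. Over the whole list of 12 melanocyte genes the summed level was 817 to 1259 CPM in these libraries, 461 to 885 CPM in A375 wild-type and 87.6 to 97.9 CPM in DLD1 G579S. MLANA, a melanosome gene, was at or near 0 in all groups, A375 included. These libraries are called DLD1-labelled wild-type throughout, and the members' results and the list counts for wild-type cells across lines are also given without them.

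Promoter sequences are shown for the members that rose together with OTS964 in wild-type cells and have an entry in the RefSeq promoter table. They are VIM, MSN, CAV1 and CDH2. A sequence is also shown for ZEB1, which was called lower in 1 line. Each is the 250 bases before the start of the gene entry (RefSeq, GRCh38.p14), 5′ to 3′ on the gene's strand, and that start need not be the one used in these cells. Capitals mark the GC box GGGCGG, bound by SP1-type factors, and the E-box CAGGTG, read on both strands (CCGCCC and CACCTG on the other).
VIM: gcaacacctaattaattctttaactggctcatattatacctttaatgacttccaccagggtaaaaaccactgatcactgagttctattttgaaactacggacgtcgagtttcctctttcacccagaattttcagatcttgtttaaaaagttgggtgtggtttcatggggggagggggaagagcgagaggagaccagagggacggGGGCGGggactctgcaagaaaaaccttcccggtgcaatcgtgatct
MSN: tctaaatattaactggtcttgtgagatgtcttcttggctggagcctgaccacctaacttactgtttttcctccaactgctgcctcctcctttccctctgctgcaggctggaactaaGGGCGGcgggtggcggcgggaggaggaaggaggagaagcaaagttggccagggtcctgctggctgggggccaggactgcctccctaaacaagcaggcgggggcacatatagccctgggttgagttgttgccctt
CAV1: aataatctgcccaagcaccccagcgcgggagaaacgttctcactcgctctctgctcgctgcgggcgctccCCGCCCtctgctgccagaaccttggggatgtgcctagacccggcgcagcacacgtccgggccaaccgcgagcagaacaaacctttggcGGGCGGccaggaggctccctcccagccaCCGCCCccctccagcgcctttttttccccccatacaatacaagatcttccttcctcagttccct
CDH2: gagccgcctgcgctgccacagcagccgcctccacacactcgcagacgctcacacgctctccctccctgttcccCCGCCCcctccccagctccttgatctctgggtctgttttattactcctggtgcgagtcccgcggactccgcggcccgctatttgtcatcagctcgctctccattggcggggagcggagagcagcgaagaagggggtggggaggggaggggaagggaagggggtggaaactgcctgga
ZEB1: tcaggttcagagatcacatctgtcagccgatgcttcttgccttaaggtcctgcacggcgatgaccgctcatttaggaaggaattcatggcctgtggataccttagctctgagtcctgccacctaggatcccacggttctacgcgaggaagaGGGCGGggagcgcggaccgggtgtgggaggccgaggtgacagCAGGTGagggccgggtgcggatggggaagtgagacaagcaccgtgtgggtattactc
The windows are chr10:17227991-17228240 on the plus strand for VIM, chrX:65588127-65588376 plus for MSN, chr7:116524759-116525008 plus for CAV1, chr18:28177131-28177380 minus for CDH2 and chr10:31318167-31318416 plus for ZEB1.

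The GC box was found in 6 of the 7 members with an entry, all but ZEB2, and in 42.6% of 35116 promoter windows of the same length. CAV1 held 3 copies, and FN1 held 6, some overlapping. The E-box CAGGTG was found in ZEB1 alone among the 7, between 57 and 52 bases before the start, and in 17.5% of all windows. CCAAT was found in CDH2 and FN1 and in 32.0% of all windows. No window of the 7 held the AP-1 motif TGANTCA (6.57% of all windows) or TATAAA (10.7%). The G and C content of the 7 windows ran from 46.0% in VIM to 76.4% in FN1, around a median of 58.0% over all windows.

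Without drug, levels per length (TPM) put VIM far above the other members in every group labelled wild-type. In A375 wild-type DMSO libraries VIM averaged 2727 TPM, followed by MSN at 258 TPM, CAV1 at 178 TPM, COL6A1 at 87.8 TPM, CDH2 at 44.8 TPM and TWIST1 at 14.8 TPM. ZEB1 averaged 10.0 TPM there, and FN1, ZEB2 and SNAI2 lay at 1.41, 1.10 and 0.643 TPM. In MDA-MB-231 wild-type the order differed, with CAV1 at 551 TPM above MSN at 466 TPM, and with SNAI2 at 46.9 TPM and FN1 at 42.9 TPM. In Cal51 wild-type TWIST1, at 66.8 TPM, stood above CDH2 at 18.6 TPM and FN1 at 0.585 TPM.

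**Figure D1:**
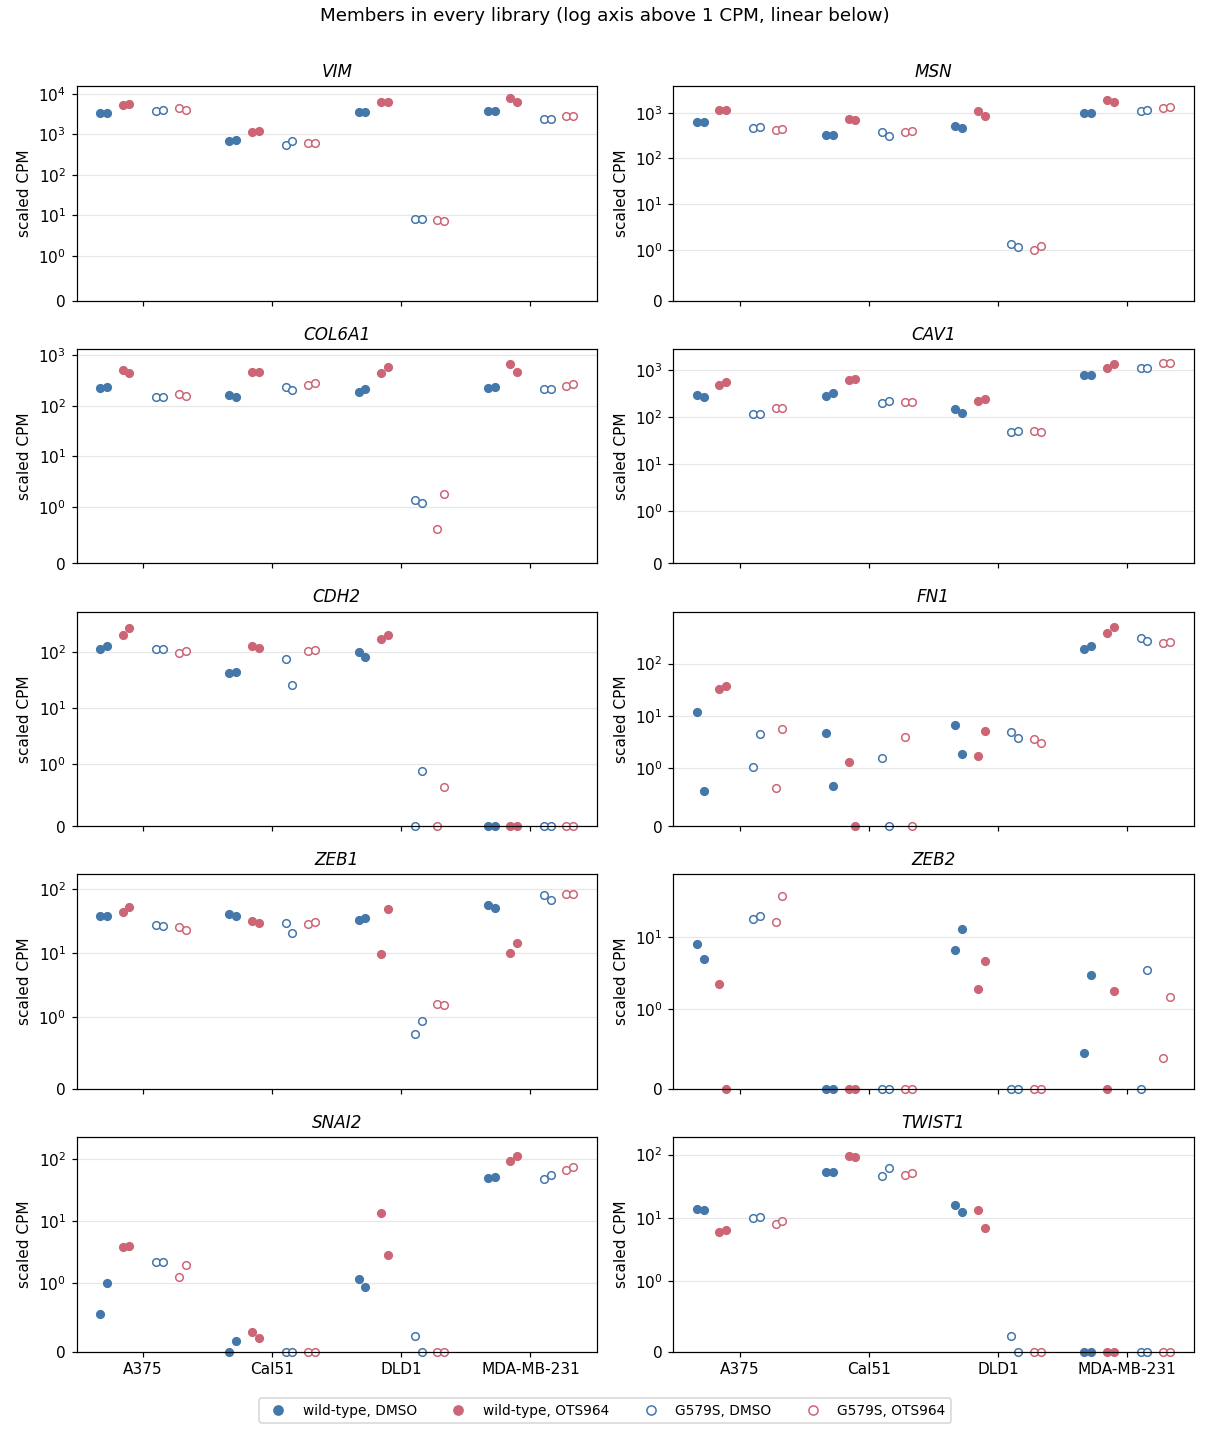
Scaled CPM (log axis above 1, linear below) of each member in all 32 libraries, by labelled line; filled points are wild-type, open points G579S, blue DMSO and red OTS964. VIM, MSN and COL6A1 are near the bottom only in DLD1 G579S, CDH2 and TWIST1 are at 0 in all 8 MDA-MB-231 libraries, and FN1 and SNAI2 are highest in MDA-MB-231.

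The lines did not all carry the same EMT factors. TWIST1, a basic helix-loop-helix factor, stood at 53.7 and 52.8 CPM in the Cal51 wild-type DMSO libraries, at 14 and 13.2 CPM in A375 and at 16.1 and 12.5 CPM in the DLD1-labelled wild-type ones, and had 0 counts in all 8 MDA-MB-231 libraries, which allows up to 3 counts per library. SNAI2 (SLUG), a zinc finger repressor, had the opposite order: it read 49.2 and 50.0 CPM in wild-type MDA-MB-231, 0.553 and 1 CPM in A375, 1.16 and 0.942 CPM in DLD1-labelled wild-type and 0 and 0.16 CPM in Cal51. The 2 factors thus did not stand high in the same line.

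For SNAI2 the log2 difference between A375 and MDA-MB-231 wild-type was -5.99 ± 0.66 (SE, adjusted p = 1.14e-06). For TWIST1, Cal51 exceeded A375 by 1.97 on the log2 scale (SE 0.34, adjusted p = 0.000186) and MDA-MB-231 by at least 363-fold, set against 3 counts per library. A375 and DLD1-labelled wild-type did not differ beyond their spread in either factor.

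ZEB1, a zinc finger and homeodomain repressor of E-cadherin, was present in every line labelled wild-type, with DMSO values of 37.2 and 38.1 CPM in A375, 40.8 and 38 CPM in Cal51, 32.8 and 35 CPM in DLD1-labelled and 56.5 and 50.0 CPM in MDA-MB-231. None of the 6 pairs of lines passed the test for ZEB1. Its relative ZEB2 had 0 counts in all 8 Cal51 libraries and between 0.448 and 13.1 CPM in the DMSO libraries of the other wild-type lines. In A375 G579S ZEB2 read 18 and 19.8 CPM, its highest level under DMSO.

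Among the structural genes FN1, the matrix glycoprotein fibronectin, separated MDA-MB-231 from the rest. Under DMSO, wild-type MDA-MB-231 libraries held 190 and 213 CPM of FN1, while the other wild-type DMSO libraries held 0.612 to 12 CPM, and the replicates there differed widely (12 and 0.612 CPM in A375). The 3 differences from MDA-MB-231 lay between -6.20 and -4.98 on the log2 scale, each past the threshold, and the other 3 pairs did not pass. CDH2 was the reverse, at 0 counts in all 8 MDA-MB-231 libraries and at 112 and 128 CPM in A375, 42.2 and 44.1 CPM in Cal51 and 102 and 81.4 CPM in DLD1-labelled wild-type under DMSO. A375 exceeded MDA-MB-231 in CDH2 by at least 819-fold, and Cal51 by 1.48 ± 0.47 (log2, SE, adjusted p = 0.0164).

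CAV1 (caveolin-1, the coat protein of caveolae) ran from 145 and 119 CPM in DLD1-labelled wild-type through 286 and 272 CPM in A375 and 275 and 322 CPM in Cal51 to 776 and 765 CPM in MDA-MB-231. A375 and Cal51, neighbours in that order, did not differ beyond their spread. MSN (moesin, which ties actin to the plasma membrane) had its lowest wild-type DMSO values in Cal51, at 325 and 320 CPM, and its highest in MDA-MB-231, at 997 and 992 CPM, and all 6 pairs passed the test. VIM was low in Cal51, at 683 and 713 CPM, and the other lines lay between 3323 and 3670 CPM with no pair among them past the threshold. COL6A1, a chain of collagen VI, ran from 150 to 235 CPM over the 8 wild-type DMSO libraries. Of the 60 tests of a member between 2 wild-type lines, 35 passed, where 41.7% of all such tests over genes did.

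DLD1 G579S, the group with the intestinal markers, lacked most of the set. VIM read 8.17 and 7.95 CPM there under DMSO, MSN 1.32 and 1.16 CPM, and COL6A1 1.38 and 1.21 CPM. ZEB1 read 0.773 and 0.948 CPM, TWIST1 and SNAI2 each 0.221 and 0 CPM, CDH2 0 and 0.896 CPM, and ZEB2 had 0 counts in all 4 DLD1 G579S libraries. CAV1 at 46.9 and 49.6 CPM and FN1 at 4.97 and 3.69 CPM were the members still above 3 CPM besides VIM. The list of 30 other mesenchymal genes was low with them, with a summed level of 300 to 373 CPM in DLD1 G579S and 3757 to 5539 CPM in the other G579S lines, while the 25 epithelial genes summed to 14042 to 18908 CPM against 281 to 5121 CPM.

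Under DMSO the labelled genotypes were compared within each line, and 9 of 10 members were lower in DLD1 G579S than in DLD1-labelled wild-type, where 49.2% of all genes differed, 26.4% lower. The log2 differences were -8.77 ± 0.14 (SE) for VIM, -8.60 ± 0.15 for MSN and -7.29 ± 0.26 for COL6A1, ZEB2 was at least 61.0-fold lower, and FN1 did not pass. The SNAI2 call ended without the second DLD1 G579S library (adjusted p = 0.0796). The melanocyte and intestinal markers given above moved with this comparison, and genotype and cell identity cannot be told apart in it.

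In the other lines fewer members were called, with log2 differences between -1.29 and 0.50, and CAV1 was called in all of them. In A375 CAV1 read 286 and 272 CPM in wild-type and 114 and 114 CPM in G579S, a log2 difference of -1.29 ± 0.10 (SE, adjusted p = 6.26e-08). In Cal51 the G579S libraries read 197 and 216 CPM, lower by a difference of -0.53 ± 0.10 (adjusted p = 0.00123). In MDA-MB-231 they read 1088 and 1091 CPM, higher by 0.50 ± 0.10 (adjusted p = 0.00428). CAV1 thus differed in opposite directions between A375 and MDA-MB-231, and that contrast between lines was not itself tested.

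COL6A1 and MSN were also lower in A375 G579S, by differences of -0.63 ± 0.18 (adjusted p = 0.0259) and -0.39 ± 0.09 (adjusted p = 0.0102), and VIM was lower in MDA-MB-231 G579S, by -0.63 ± 0.10 (adjusted p = 0.000414). That made 3 of 10 members called in A375, 1 in Cal51 and 2 in MDA-MB-231, where 9.76%, 17.0% and 7.30% of all genes were called. Leaving out either A375 wild-type DMSO library, or the first A375 G579S one, ended the A375 calls of COL6A1 and MSN (adjusted p 0.0621 to 0.153), as did the second G579S one for COL6A1. Without the second MDA-MB-231 wild-type DMSO library the CAV1 call there ended as well (adjusted p = 0.052). Other omissions added calls. In Cal51 COL6A1 passed without either DLD1 G579S OTS964 or either MDA-MB-231 wild-type OTS964 library (adjusted p = 0.0245 and 0.0431), ZEB1 without either DLD1-labelled wild-type OTS964 library (adjusted p = 0.00951), and VIM without the second Cal51 G579S DMSO library (-0.38, adjusted p = 0.0158). SNAI2 passed in A375 without either DLD1-labelled wild-type OTS964 library (adjusted p = 0.0477).

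With OTS964, 5 of the 6 structural members and 1 of the 4 transcription factors rose in wild-type cells. In these bulk samples a change in the share of cells of a type and a change in RNA per cell cannot be told apart. Across the 4 labelled lines 6 of 10 members were higher and 0 lower, where 58.8% of all genes were called, 27.1% higher and 31.8% lower. The median log2 change of the 10 members was 0.83, beside -0.11 over all genes tested. Because the members were chosen with earlier results of these data known, these counts are descriptions. The members that rose were VIM, MSN, COL6A1, CAV1, CDH2 and SNAI2, and those that did not pass were FN1, ZEB1, ZEB2 and TWIST1. Without the DLD1-labelled wild-type libraries the count was again 6 higher and 0 lower (all genes 25.1% higher and 27.6% lower), with estimates of 0.78 for VIM, 0.96 for MSN, 1.29 for COL6A1, 0.88 for CAV1, 1.25 for CDH2, 1.04 for FN1, -0.69 for ZEB1, -1.70 for ZEB2 and -0.13 for TWIST1. Within single lines 21 of 40 tests of a member passed, where 48.8% of all such tests over genes did.

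VIM rose from 3323 and 3369 CPM to 5341 and 5604 CPM in A375 and from 683 and 713 to 1124 and 1176 CPM in Cal51. In DLD1-labelled wild-type it rose from 3572 and 3478 to 6380 and 6111 CPM, and in MDA-MB-231 from 3670 and 3642 to 7651 and 6180 CPM. Both OTS964 libraries lay above both DMSO libraries in each wild-type line, and the change within a line ran from 0.71 to 0.92 on the log2 scale. With 2 libraries per group such separation is weak support, here and below, and its share over all genes was not counted. The estimate across lines was 0.79 ± 0.05 (log2, SE, adjusted p = 7.94e-09). In the deposited TPM, which carry no TMM factor, the direction turned in Cal51, where VIM went from 646 and 666 TPM down to 536 and 553 TPM. In TPM the A375 mean went from 2727 to 2817 and that of DLD1-labelled wild-type from 2902 to 2940, both with overlap. That of MDA-MB-231 went from 3410 to 3747, without overlap.

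MSN rose from 624 and 629 to 1128 and 1140 CPM in A375, from 325 and 320 to 720 and 703 CPM in Cal51, from 507 and 460 to 1071 and 867 CPM in DLD1-labelled wild-type and from 997 and 992 to 1909 and 1735 CPM in MDA-MB-231. In no wild-type line did the MSN libraries overlap between treatments, and the estimate was 0.97 ± 0.06 (log2, SE, adjusted p = 6.05e-09). Ezrin (EZR) and radixin (RDX), the close relatives that with moesin make up the ERM family, went the other way, with log2 changes of -0.34 ± 0.08 (adjusted p = 0.00169) and -0.32 ± 0.10 (adjusted p = 0.012). EZR averaged 441 CPM with DMSO and 370 CPM with OTS964 over the wild-type libraries. Under library totals MSN stayed higher (0.42) and both relatives lower (-0.89 and -0.86). EZR and RDX changed by -0.25 ± 0.07 (adjusted p = 0.0102) and -0.35 ± 0.12 (adjusted p = 0.0282) without the DLD1-labelled wild-type libraries.

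COL6A1 rose in each wild-type line. Its values went from 220 and 235 to 496 and 443 CPM in A375, from 166 and 150 to 468 and 456 CPM in Cal51, from 188 and 218 to 450 and 574 CPM in DLD1-labelled wild-type and from 225 and 235 to 660 and 461 CPM in MDA-MB-231. Every wild-type line was higher with OTS964 and none overlapped, with an estimate of 1.30 ± 0.09 (log2, SE, adjusted p = 2.44e-08). COL6A2 and COL6A3, the other main chains of collagen VI, rose too, by 1.39 ± 0.13 and 1.39 ± 0.12, although COL6A3 was at 0 CPM in Cal51. Without the DLD1-labelled wild-type libraries these values were 1.36 and 1.30, both past the threshold.

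CAV1 rose from 286 and 272 to 477 and 558 CPM in A375, from 275 and 322 to 600 and 645 CPM in Cal51, from 145 and 119 to 219 and 244 CPM in DLD1-labelled wild-type and from 776 and 765 to 1115 and 1340 CPM in MDA-MB-231. The libraries did not overlap in any wild-type line, and the estimate was 0.86 ± 0.07 (log2, SE, adjusted p = 1.39e-07). In the deposited TPM the CAV1 mean of wild-type MDA-MB-231 went down instead, from 551 to 516 TPM, with overlap. The TPM libraries also overlapped in Cal51 (means of 218 and 228) and in DLD1-labelled wild-type (85.6 and 86.1). In A375 they did not, going from 181 and 174 to 192 and 224 TPM. CAV2, its partner in caveolae, changed by 0.14 ± 0.11 and did not pass (adjusted p = 0.288), while CAVIN1, a coat protein of caveolae, rose by 0.94 ± 0.08. Without the DLD1-labelled wild-type libraries CAV2 was at 0.16 (adjusted p = 0.356) and CAVIN1 at 0.91.

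CDH2 was higher with OTS964 in the 3 lines that express it, going from 112 and 128 to 206 and 266 CPM in A375, from 42.2 and 44.1 to 129 and 119 CPM in Cal51 and from 102 and 81.4 to 170 and 206 CPM in DLD1-labelled wild-type. The wild-type libraries of these lines did not overlap, and the estimate was 1.17 ± 0.12 (log2, SE, adjusted p = 6.26e-06). Within single lines the fit called Cal51 alone (1.53 ± 0.47, adjusted p = 0.0126), and that call ended without either Cal51 wild-type DMSO library (adjusted p = 0.0575 and 0.0666). A375 (0.98) passed without either Cal51 G579S DMSO library (adjusted p = 0.0467), and DLD1-labelled wild-type (1.03) without either of those or either DLD1 G579S DMSO library (adjusted p 0.034 and 0.0418), since the fit shares its spread over all groups.

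SNAI2 was the one transcription factor of the set that rose. In MDA-MB-231, where it was abundant, it went from 49.2 and 50.0 to 91.5 and 112 CPM, in A375 from 0.553 and 1 to 3.8 and 3.98 CPM and in DLD1-labelled wild-type from 1.16 and 0.942 to 13.4 and 2.85 CPM. Both OTS964 libraries were above both DMSO libraries in these lines, and Cal51 held 0 to 3 counts per library. The estimate was 1.98 ± 0.38 (log2, SE, adjusted p = 0.000432), and 1.56 ± 0.32 (adjusted p = 0.00158) without the DLD1-labelled wild-type libraries. Within lines A375 (2.32 ± 0.63) and DLD1-labelled wild-type (2.92 ± 0.60) passed and MDA-MB-231 (1.04 ± 0.50, adjusted p = 0.106) did not, and the A375 call ended without the first wild-type DMSO library (1.95, adjusted p = 0.0663), while MDA-MB-231 passed without either DLD1-labelled wild-type OTS964 library (adjusted p = 0.029 and 0.0291). The value in DLD1-labelled wild-type rested on its first OTS964 library: it was 1.43 without that library (adjusted p = 0.0402) and 3.65 without the second.

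**Figure D2:**
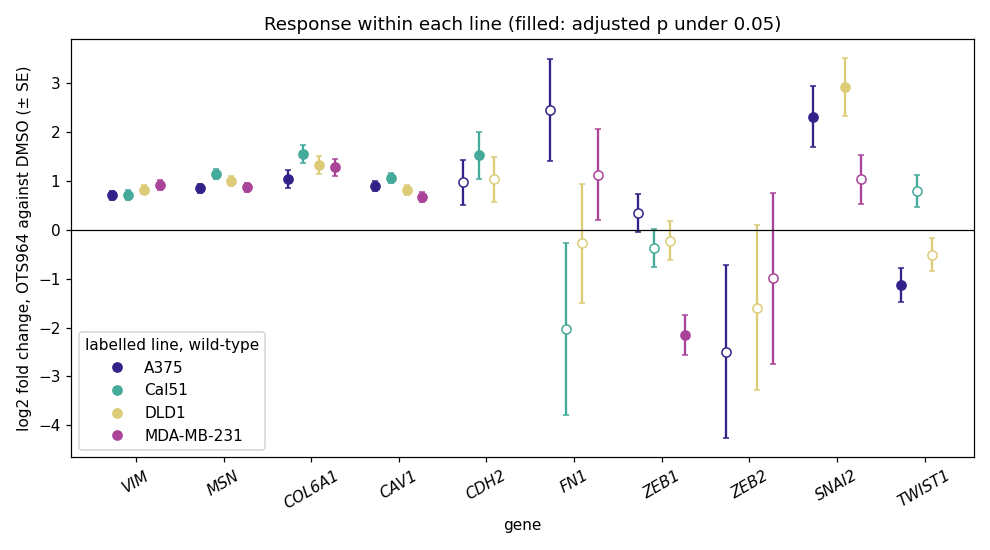
Log2 fold change with OTS964 (± SE) of each member within each labelled wild-type line; filled points passed the adjusted threshold of 0.05, and values of a gene with no more than 3 counts per library are left out. VIM, MSN, COL6A1 and CAV1 lie above 0 in every line, while ZEB1 lies near -2.14 in MDA-MB-231 and between -0.37 and 0.35 in the others. The ZEB1 point of DLD1-labelled wild-type averages OTS964 libraries that disagree, at 9.56 and 48.6 CPM.

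With all libraries, ZEB1 passed in MDA-MB-231 alone among the wild-type lines, where it fell. Its libraries there went from 56.5 and 50.0 CPM to 9.91 and 14.2 CPM, a log2 change of -2.14 ± 0.41 (SE, adjusted p = 0.000219), with no overlap. In A375 it went from 37.2 and 38.1 to 43.9 and 52.3 CPM (0.35 ± 0.39). In Cal51 it went from 40.8 and 38 to 32 and 28.8 CPM (-0.37 ± 0.39). Neither passed, although the treatments did not overlap in either line. In the deposited TPM ZEB1 was lower with OTS964 in both lines. It went from 9.87 and 10.2 to 7.43 and 8.82 TPM in A375 and from 12.6 and 11.6 to 5.04 and 4.46 TPM in Cal51. The DLD1-labelled wild-type libraries disagreed, with 9.56 and 48.6 CPM after 32.8 and 35 CPM, so that the log2 change of -0.22 became 0.52 without the first OTS964 library (adjusted p = 0.0446) and -1.83 without the second (adjusted p = 2.93e-06), a call in opposite directions.

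The response of MDA-MB-231 minus the mean of the other wild-type lines was -2.06 ± 0.46 for ZEB1 (log2, SE, adjusted p = 0.00233), the single call among 40 tests of this kind over the members, where 11.9% of all such tests over genes passed. MDA-MB-231 G579S libraries read 79.6 and 66.1 CPM under DMSO and 83.5 and 82.1 CPM with OTS964. The fall was thus seen in the cells labelled wild-type and not in those labelled G579S, and the difference of the 2 responses was -2.33 ± 0.56 (adjusted p = 0.00482). Across lines ZEB1 did not pass (-0.57 ± 0.35, adjusted p = 0.179), but it did without the second DLD1-labelled wild-type OTS964 library (-0.89, adjusted p = 0.0303), as did the difference of responses across lines (-1.11, adjusted p = 0.00892).

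With all libraries TWIST1 passed in A375 alone, where it fell. It went from 14 and 13.2 to 6.05 and 6.39 CPM in A375 (-1.13 ± 0.34, adjusted p = 0.0135). In Cal51 it went from 53.7 and 52.8 to 94.2 and 91.1 CPM (0.80 ± 0.32, adjusted p = 0.051). In the deposited TPM the Cal51 libraries went down instead, from 67.8 and 65.8 to 59.9 and 57.0 TPM. DLD1-labelled wild-type went from 16.1 and 12.5 to 13.2 and 6.97 CPM (-0.50 ± 0.33, adjusted p = 0.237). The A375 call ended without the first DMSO library or either OTS964 library (adjusted p 0.0549 to 0.0747). Cal51 passed without either library of DLD1 G579S DMSO, DLD1-labelled wild-type OTS964 or MDA-MB-231 wild-type OTS964 (adjusted p 0.0114 to 0.0482), and DLD1-labelled wild-type passed without its own first OTS964 library (-1.04, adjusted p = 0.0409). Its relative TWIST2, at 11.4 CPM in A375 wild-type DMSO libraries on average, changed by -1.43 ± 0.58 across lines (adjusted p = 0.052).

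ZEB2 and FN1 passed in no single line and not across lines. ZEB2 read 7.99 and 4.95 CPM under DMSO and 2.25 and 0 CPM with OTS964 in A375, and 6.66 and 13.1 against 1.91 and 4.62 CPM in DLD1-labelled wild-type, with no call (-1.67 ± 0.95 across lines, adjusted p = 0.154). FN1 went from 190 and 213 to 392 and 491 CPM in MDA-MB-231 and from 12 and 0.612 to 32 and 37.8 CPM in A375, without overlap. The values in Cal51 (4.76 and 0.695 under DMSO, 1.32 and 0 CPM with OTS964) and in DLD1-labelled wild-type (6.57 and 1.83, then 1.72 and 5.2 CPM) overlapped. Its estimate across lines was 0.69 ± 0.67 (adjusted p = 0.397). The A375 value of 2.45 did not pass with all libraries (adjusted p = 0.0619) and became 5.82 (adjusted p = 0.00999) without the first DMSO library, and it passed without either Cal51 G579S OTS964 library (adjusted p = 0.0457).

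**Figure D3:**
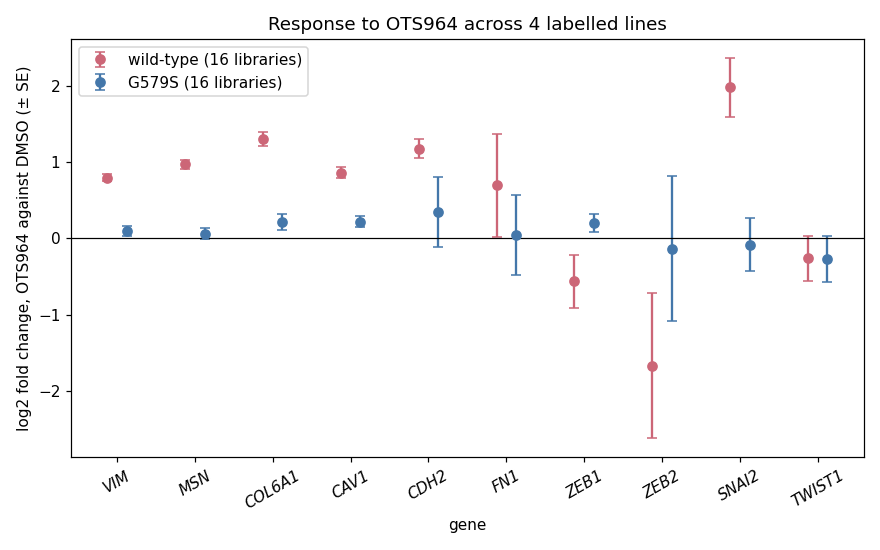
Log2 fold change with OTS964 (± SE) of each member across the 4 labelled lines, in wild-type (red) and G579S (blue) cells. The wild-type values of VIM, MSN, COL6A1, CAV1, CDH2 and SNAI2 lie between 0.79 and 1.98, and the G579S values of these genes between -0.09 and 0.35.

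In G579S cells 0 of 10 members passed across lines, where 2.43% of all genes did, and 0 of the 10 by edgeR compares with 2 by DESeq2 (CAV1 and COL6A1). The count with an unadjusted p under 0.05 was 1, CAV1 (0.22 ± 0.07, unadjusted p = 0.00523, adjusted p = 0.0814). CAV1 passed without the second Cal51 G579S DMSO library (adjusted p = 0.0184), and COL6A1 without the first DLD1 G579S OTS964 library (adjusted p = 0.0498). The median change of the members was 0.08, beside -0.01 over all genes. VIM read 3681 and 3893 CPM under DMSO and 4493 and 3899 CPM with OTS964 in A375 G579S, and MSN 462 and 494 against 420 and 449 CPM. COL6A1 went from 213 and 209 to 250 and 272 CPM in MDA-MB-231 G579S.

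Within single G579S lines CAV1 in A375 was the 1 call of 40 tests, where 6.22% of all such tests over genes passed, from 114 and 114 to 159 and 158 CPM (0.48 ± 0.10, adjusted p = 0.035). The size stayed between 0.45 and 0.48 when any 1 library was left out, but the adjusted p reached 0.305. In Cal51 G579S the 2 DMSO libraries differed in CDH2, at 76.7 and 25.9 CPM, with 104 and 110 CPM after OTS964. Without the first of them CDH2 (2.04, adjusted p = 0.0151) and MSN (0.32, adjusted p = 0.0356) passed there.

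The difference between the responses of wild-type and G579S cells passed for 5 of 10 members, all in the higher direction, where 50.1% of all genes passed, 24.3% higher. It was 0.70 ± 0.08 for VIM (log2, SE, adjusted p = 8.12e-08), 0.91 ± 0.09 for MSN, 1.09 ± 0.14 for COL6A1, 0.64 ± 0.10 for CAV1 and 2.08 ± 0.57 for SNAI2 (adjusted p = 0.00372). CDH2 at 0.83 ± 0.47 did not pass (adjusted p = 0.155), but did without the second Cal51 G579S DMSO library (1.17, adjusted p = 0.024). ZEB1 at -0.78 ± 0.39 did not pass (adjusted p = 0.0946), but did without the DLD1-labelled wild-type libraries (-0.91 ± 0.35, adjusted p = 0.036). The 5 calls stood without those libraries as well, at 0.69 for VIM, 0.90 for MSN, 1.08 for COL6A1, 0.66 for CAV1 and 1.65 ± 0.50 for SNAI2. The DLD1 G579S libraries, which lacked most of the set, stayed in that fit. Its G579S side thus held a line that its wild-type side did not, and the DLD1 mismatch was not removed from it. Within single lines 18 of 40 such differences passed, where 35.7% of all tests of this kind over genes did.

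**Figure D4:**
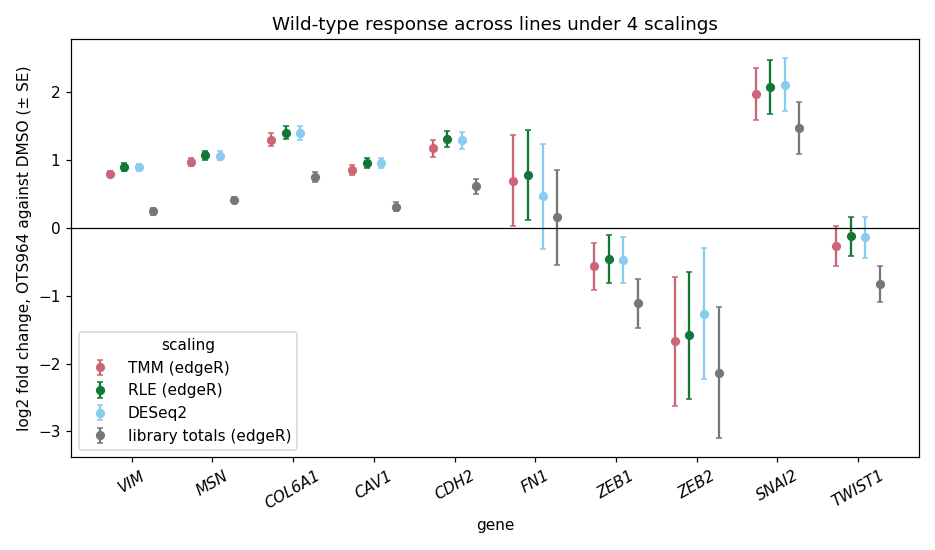
Log2 fold change with OTS964 (± SE) in wild-type cells across lines under 4 scalings. VIM, MSN, COL6A1, CAV1, CDH2 and SNAI2 stay above 0 under each scaling, with VIM at 0.79 by TMM and 0.24 by library totals.

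The size of these responses depended on the scaling, and for ZEB1 and TWIST1 so did the call. With library totals in place of TMM factors the 6 members stayed higher, at 0.24 for VIM (adjusted p = 0.00045), 0.42 for MSN, 0.31 for CAV1, 0.75 for COL6A1, 0.62 for CDH2 and 1.47 for SNAI2. ZEB1 (-1.11, adjusted p = 0.0154) and TWIST1 (-0.83, adjusted p = 0.0183) were then lower, and the share of called genes that were higher fell to 21.9% from 46.0%. Within lines, VIM in Cal51 (0.02) and CAV1 in MDA-MB-231 (0.17) no longer passed, and neither did the difference for CAV1 between genotypes (0.21, adjusted p = 0.0853). The share of reads on predicted transcripts also moved with the drug, from 11.38% to 12.47% of reads in wild-type DMSO libraries down to 8.97% to 9.46% with OTS964, and its part in the result was not tested.

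Of 28 other mesenchymal genes tested, of a list of 30, 19 rose and 1 fell in wild-type cells, with a median log2 change of 0.87, beside 27.1% of all genes higher, 31.8% lower and a median of -0.11. Without the DLD1-labelled wild-type libraries 17 rose and 1 fell (median 0.95). This list and those that follow were chosen with earlier results known, so their counts are descriptions as well. TAGLN, an actin-binding protein of smooth muscle, rose by 1.33 ± 0.14, and the homeobox gene PRRX1 fell (-1.96 ± 0.36). SNAI1, the close relative of SNAI2, changed by 0.47 ± 0.27 and did not pass (adjusted p = 0.16). With library totals 13 rose and 3 fell, with a median of 0.32, and in G579S cells 0 of 28 passed, where 2.43% of all genes did.

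Of 16 matrix receptors and adhesion-plaque proteins (such as ILK, PXN, TLN1 and VCL) 14 were higher and 1, ITGA2, lower, against the 27.1% and 31.8% of all genes (median 0.85, and 7 higher and 2 lower with library totals). Without the DLD1-labelled wild-type libraries 13 were higher and 0 lower. ITGB1, the integrin beta chain shared by most collagen and fibronectin receptors, rose by 1.21 ± 0.10, the proteoglycan SDC4 by 1.20 ± 0.14, and the integrin chains ITGA3 and ITGB5 by 1.08 ± 0.10 and 1.03 ± 0.10. Of 12 genes of caveolae and the actin cortex, 7 rose and 2, EZR and RDX, fell (median 0.51), again 7 and 2 without the DLD1-labelled wild-type libraries. FLNA and ACTN4, which crosslink actin, rose by 1.01 ± 0.08 and 0.91 ± 0.07. With library totals 3 rose and 5 fell in that list and its median became -0.04. In G579S cells, where 2.43% of all genes passed, 2 of the 16 (the receptor CD44 and the plaque protein VCL) and 5 of the 12 (CAVIN1, EZR, MYH9, ACTN1 and ACTN4) passed, all higher. These genes are named because the counts are small, after their values were seen.

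Genes of transforming growth factor beta (TGF-β) signalling, the best known inducer of EMT, were called in both directions. Of 21 tested, 7 rose and 9 fell, that is 33.3% and 42.9%, beside 27.1% and 31.8% of all genes. The median was -0.47, and 5 rose and 12 fell with library totals. The counts were also 7 and 9 without the DLD1-labelled wild-type libraries, with a median of -0.18. SMAD3, which carries the signal to the nucleus, fell (-2.58 ± 0.09), from a mean of 154 to 27.1 CPM over wild-type libraries, and its partner SMAD4 fell (-2.07 ± 0.15). SMAD7, the inhibitor of the pathway, rose by 2.15 ± 0.17, from 50.7 to 240 CPM, and in G579S cells by 0.51 ± 0.06 (adjusted p = 0.00235), the one gene of the list called there, where 2.43% of all genes were. LTBP1, which anchors latent TGF-β in the matrix, rose by 2.08 ± 0.74, and did not pass with library totals (adjusted p = 0.0817).

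Of 25 epithelial genes, 10 rose and 4 fell (median 0.48), beside 27.1% and 31.8% of all genes, which became 3 higher and 7 lower (median -0.09) with library totals and 8 higher and 2 lower without the DLD1-labelled wild-type libraries. E-cadherin (CDH1) rose by 1.02 ± 0.14 and EPCAM by 1.01 ± 0.17. The epithelial transcription factor GRHL2, at a mean of 0.569 CPM with DMSO, fell (-2.42 ± 0.74), as did the tight junction genes MARVELD2 (-1.92 ± 0.49) and CLDN4 (-1.40 ± 0.38) and the splicing factor ESRP2 (-1.19 ± 0.28). GRHL2 (adjusted p = 0.0945) and CLDN4 (adjusted p = 0.0633) no longer passed without the DLD1-labelled wild-type libraries. The share of mesenchymal list members called higher was 19 of 28 and of epithelial ones 10 of 25, and the difference between these shares was not tested.

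Marker lists of the tissues of origin were small, and their counts are given beside the 27.1% of all genes higher and 31.8% lower. Of 8 melanocyte genes tested 2 rose and 2 fell, with SOX10 lower (-1.33 ± 0.18) and S100A1 higher (1.23 ± 0.22). Of 8 colorectal genes 4 rose and 1 fell. CDH1 and EPCAM are among those that rose and were also counted in the epithelial list. The transcription factor MYB fell (-3.72 ± 0.81), from a low mean of 1.44 CPM to 0.131 CPM over wild-type libraries. Of 11 breast epithelial genes 5 rose and 2 fell, among them GATA3 (-2.09 ± 0.69) and the secreted peptide TFF3 (1.56 ± 0.38). With library totals the counts were 2 higher and 3 lower, 2 and 1, and 2 and 2 in these lists, and without the DLD1-labelled wild-type libraries 1 and 1, 3 and 1, and 5 and 2. Their part in the members' responses was not tested.

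For 4 members several transcripts could be compared, and 0 of 4 changed transcript usage with OTS964 in wild-type cells by edgeR's test, where 6.09% of 6401 genes did. The adjusted p was 0.469 for CAV1 and 1 for ZEB1, ZEB2 and FN1, and 0 of the 4 had an unadjusted p under 0.05. The count was also 0 without the DLD1-labelled wild-type libraries. The shares in the pooled reads of a group also differed between lines, which was not tested. The CAV1 transcript NM_001753.4 held 69.6% of CAV1 reads in MDA-MB-231 wild-type DMSO libraries and 32.7% to 38.4% in the other wild-type DMSO groups, where NM_001172896.1 held 42.6% to 55.5%. In MDA-MB-231 wild-type DMSO libraries FN1 was mostly NM_002026.2 (77.6%), with NM_212478.1 at 22.3%, and ZEB1 was split between NM_030751.5 (57.4%) and NM_001174096.1 (41.7%).

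Correlations between members depended on the DLD1 G579S groups. Over the mean log2 CPM of 16 groups, which share lines and libraries, Pearson's r was 0.98 between COL6A1 and MSN, 0.96 between VIM and MSN and 0.83 between VIM and ZEB1. Over the 14 groups without DLD1 G579S these became 0.66, 0.67 and -0.11. SNAI2 and FN1, both highest in MDA-MB-231, gave 0.93 and 0.95, and SNAI2 and TWIST1, which were high in different lines, -0.66 and -0.98.

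By the same measure over 16 groups, the gene most like a member was BNIP3 for VIM (0.982), RTL8A for COL6A1 (0.99), ANTXR1 for MSN (0.984), ANXA6 for CAV1 (0.967), DLL3 for CDH2 (0.996), LAPTM5 for SNAI2 (0.992), ZNF853 for TWIST1 (0.99), ZNF569 for ZEB1 (0.973), LRRK2 for ZEB2 (0.97) and TMEM163 for FN1 (0.976). COL6A2 was among the 3 highest for both COL6A1 (0.986) and MSN (0.983). These are descriptions of 16 means from 4 lines, chosen over all genes tested.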

How the data were processed

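Titles in the labels gave each library's group. Estimated counts and TPM per transcript are in the deposited tables, per the file headers; the estimated counts are not normalized, and the TPM values were normalized by the authors to length and library total. Neither the quantification tool nor the use of strand is given in the sources. GRCm38 and mm10, both mouse, are the builds in the submitters' processing notes, although the identifiers are human RefSeq ones.

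Identifiers were matched to genes without version (42543 of 87398, holding 87.56% of reads on average), so reads on unmatched predicted transcripts of a member are left out. Counts were summed to 18854 genes and rounded. edgeR 4.0.16 (R 4.3.3) tested 14317 genes with the quasi-likelihood F test, TMM scaling, its low-count filter and Benjamini-Hochberg adjustment over all genes at 0.05. Fits across lines had line as a block, and fits within lines used 16 groups over 32 libraries. Transcript usage was tested with diffSpliceDGE and the Simes method. DESeq2 1.42.0, other scalings and omitted libraries were alternatives. When 1 library was left out of the gene fits, the filter, the TMM scaling and the quasi-likelihood step were redone. Each gene's trended dispersion was kept from the fit of all libraries, so these were not full refits. In data simulated for the wild-type fit across lines (13552 genes), 97.9% of 2-fold changes were recovered, and 50% in the fit within A375. That simulation gave each gene a common mean over lines and a fixed dispersion, so these rates need not hold for the real libraries. A fold against a group at 0 uses a floor of 3 counts per library. The floor covers counting error only, while each SE comes from the fit and includes the spread between libraries.

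The members and gene lists were chosen with earlier results of these data known. All 10 members were named; of each list up to 4 called genes with the largest change in wild-type cells were named, plus marker and relative genes, and 3 genes per member were taken by correlation, of which 1 or 2 are given.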

Additional observations from a re-analysis of the deposited data

Results flagged for a closer look

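The response to OTS964 differed between cells labelled wild-type and G579S in edgeR's test of the difference itself for the values that follow, each a log2 difference of responses, wild-type minus G579S. Across lines these were 0.64 for CAV1, 1.09 for COL6A1, 0.91 for MSN, 2.08 for SNAI2 and 0.70 for VIM. In A375 they were 0.41 for CAV1, 0.89 for COL6A1, 0.99 for MSN, 2.80 for SNAI2 and 0.56 for VIM. In Cal51 they were 1.07 for CAV1, 1.26 for COL6A1, 0.99 for MSN and 0.73 for VIM. In MDA-MB-231 they were 0.98 for COL6A1, 0.64 for MSN, 0.64 for VIM and -2.33 for ZEB1. In A375 the CAV1 difference no longer passed without either wild-type DMSO, either G579S DMSO, the second wild-type OTS964 or the second G579S OTS964 library (adjusted p 0.0548 to 0.176), and the SNAI2 one without the first wild-type DMSO (2.42) or the first G579S OTS964 library (2.54). In MDA-MB-231 the COL6A1 difference was 0.70 without the first wild-type OTS964 library (adjusted p = 0.0519).

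Between the libraries labelled DLD1 they were 0.76 for CAV1, 1.48 for COL6A1, 1.18 for MSN, 6.95 for SNAI2 and 0.92 for VIM. The libraries labelled DLD1 wild-type and G579S differ in cell markers, and the SNAI2 value rests on DLD1 G579S libraries at or near 0 counts. Without the first DLD1 G579S DMSO library the SNAI2 difference was 2.92 and no longer passed (adjusted p = 1). It also missed the threshold without the second DLD1-labelled wild-type DMSO library or either G579S OTS964 library (adjusted p 0.0501 to 0.0849), and COL6A1 was 0.83 (adjusted p = 0.0696) without the first G579S OTS964 library.

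Among the wild-type lines, the ZEB1 response of MDA-MB-231 differed from the mean of the other lines by -2.06. No group was tested for outlying libraries, since each holds 2. The 2 libraries of a group differed beyond counting noise everywhere, with a chi-square per degree of freedom over genes of 5.68 to 86.9, and most in Cal51 G579S DMSO (86.9), MDA-MB-231 wild-type OTS964 (85.7) and DLD1-labelled wild-type OTS964 (47.8).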

How the results depend on the processing

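Leaving out 1 library at a time, the count of members called was 6 to 7 in wild-type cells across lines, 0 to 1 in G579S cells across lines, 5 to 6 for the difference across lines, 20 to 25 of 40 within wild-type lines, 0 to 3 within G579S lines, 16 to 20 for the difference within lines and 1 to 4 for a wild-type line against the others. The count of all genes called in G579S cells across lines, 348, ran from 100 to 1661, the highest without the second Cal51 G579S DMSO library. With library totals the members' difference within lines fell to 9 calls, the comparison of a wild-type line with the others gave 2, and 808 genes were called in G579S cells. With RLE size factors that comparison of lines gave 2. With DESeq2 it gave 3, members called in G579S cells were 2 across lines and 2 within lines, and 1778 genes were called in G579S cells. ZEB1 in DLD1-labelled wild-type was 0.52 without the first OTS964 library and -1.83 without the second; the cause was not tested.

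Replicate numbers did not pair the samples: the correlation of same-numbered deviations ran from -0.047 to 0.088. With the replicate number as a block, 7 members were called in wild-type cells across lines, 0 in G579S cells within lines, and 0 genes in all in G579S cells across lines. Of single results under all alternatives, 5409 kept their call or lack of one, 60 lost the call, 54 gained it and 1 reversed. A result without a call could change sign and still count as kept. The FN1 response in A375 G579S, for example, ran from -2.08 to 1.42 when 1 library was left out.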
